A study of Mus musculus with 2 samples.

Results

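The genes described here carry the type I interferon signal from the cell surface to transcription, in AE9a leukemia cells. They are the receptor subunits Ifnar1 and Ifnar2, the kinases Jak1 and Tyk2, the transcription factors Stat2, Irf9, Irf7 and Irf1, and the feedback inhibitor Socs1. These 9 genes, of 31053 in the files, were taken by symbol, and each matched 1 gene. The question was which of these components had more mRNA in one group and which had like mRNA in both, where the groups are leukemia cells meant to keep or to lose 1 allele of Usp18.

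Type I interferon binds IFNAR1 and IFNAR2 at the cell surface, and the kinases TYK2 and JAK1 bound to their tails phosphorylate STAT proteins. STAT2 and IRF9 are subunits of ISGF3, which enters the nucleus and binds interferon-stimulated response elements (ISREs) of interferon-stimulated genes (ISGs). Some parts of the pathway are themselves ISGs, so that a first signal can enlarge the next. USP18 and SOCS1 restrain the pathway at the receptor and its kinases.

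AE9a is a truncated AML1/ETO fusion that drives acute myeloid leukemia in mice, and the leukemia cells are marked by GFP. In both groups the transplanted cells were Usp18+/f, with 1 floxed allele, and carried UBCER-Cre, a tamoxifen-inducible Cre under a ubiquitin promoter that is active in all tissues. Sick recipients received oil (Usp18+/f) or tamoxifen (Usp18+/Δ), and GFP+ Lin- c-Kit+ splenocytes were sorted 3 days after the injections began. Each group is 1 library from the pooled cells of 3 mice, and no test between conditions was possible. Tamoxifen, Cre activity and the deletion cannot be told apart in these 2 libraries.

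After filtering, 6546 cells with 58068183 UMIs (unique molecular identifiers, 1 per captured transcript) remained in the Usp18+/f-labelled library, and 7073 cells with 59503327 UMIs in the Usp18+/Δ-labelled library. Median depths were 8575.5 and 8023 UMIs per cell, and 15 barcodes occurred in both libraries. Kit, the gene of the sort, was at 96.8 and 102 CPM (UMIs scaled to a library total of 1000000). Usp18 mRNA went against the label, at 5.68 CPM (95% interval 5.09 to 6.33) in the Usp18+/f-labelled library and 24.1 CPM (22.9 to 25.4) in the Usp18+/Δ-labelled library, where 1 allele is stated to be deleted. Whether the deleted allele still gives 3′ reads was not tested. Isg15, a classical ISG, was at 20.9 CPM (19.8 to 22.1) and 116 CPM (113 to 118), higher where Usp18, the inhibitor of the pathway, is stated to be reduced. Ratios are given as the Usp18+/Δ-labelled library over the Usp18+/f-labelled library. Intervals are exact 95% intervals that cover counting error only, and not the spread between mice or libraries.

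The 9 genes fell into 3 sets. A gene was called raised when it was at least 1.5-fold higher with its interval above 0, and level when the whole interval of its log2 ratio lay within 0.25 of 0. Irf7, Irf1, Stat2 and Irf9 were raised, Ifnar1, Ifnar2, Jak1 and Tyk2 were level, and Socs1 lay between. Of the 8 with a mean of at least 5 CPM, all but Irf1, 3 were raised. Among all 8879 genes at that level, 104 were raised (1.17%), 16 were lowered and 6618 were level (74.5%), and 0 of the 9 genes were lowered. Irf7 reached the mean of 5 CPM only through the Usp18+/Δ-labelled library, and the 9 genes were chosen with earlier results known, so these shares are descriptions. The median log2 ratio of those 8 genes was 0.21, beside 0.01 over all genes of that level. With 1 library per group these calls describe the libraries, not the conditions.

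**Figure D1:**
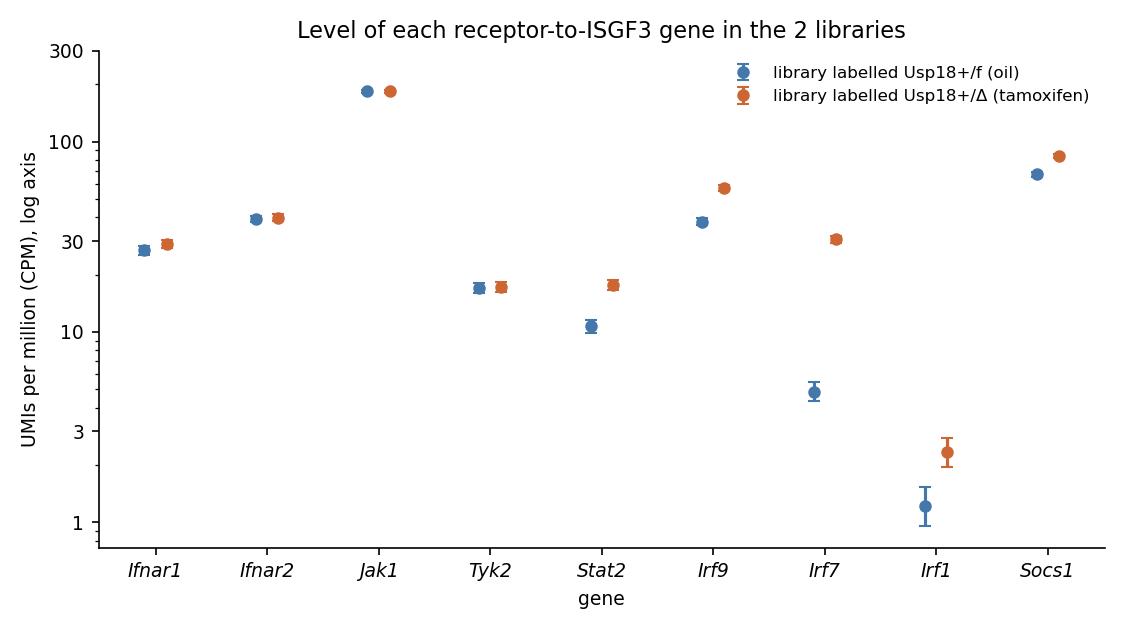
Level of each gene in CPM on a log axis, in the Usp18+/f-labelled library (blue) and the Usp18+/Δ-labelled library (orange); bars are exact 95% Poisson intervals. The points of Ifnar1, Ifnar2, Jak1 and Tyk2 nearly coincide, whereas Irf7 stands at 4.86 and 30.6 CPM.

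The receptor came first. Ifnar1 (ENSMUSG00000022967, chr16:91485238-91507441, mm10), the subunit that holds TYK2, had 1559 UMIs or 26.8 CPM (25.5 to 28.2) in the Usp18+/f-labelled library and 1727 UMIs or 29.0 CPM (27.7 to 30.4) in the Usp18+/Δ-labelled library. Its log2 ratio was 0.11 (0.01 to 0.21), a 1.08-fold difference. The level call of Ifnar1 was lost in 4 of 11 alternatives. The ratio was 0.26 (-0.08 to 0.59) for cells of at most 5% mitochondrial UMIs and 0.21 for CPM averaged over cells. Ifnar2 (ENSMUSG00000022971, chr16:91372783-91405589), the high-affinity subunit that holds JAK1 and binds USP18, had 2275 UMIs or 39.2 CPM (37.6 to 40.8) and 2369 UMIs or 39.8 CPM (38.2 to 41.4). Its log2 ratio was 0.02 (-0.06 to 0.11), and the intervals of the libraries overlapped.

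The kinases were at like levels in both libraries. Jak1 (ENSMUSG00000028530, chr4:101152367-101265282), which also serves the interferon-γ receptor and many cytokine receptors, had 10659 and 10947 UMIs, or 184 CPM (180 to 187) and 184 CPM (181 to 187). With its log2 ratio of 0.00 (-0.04 to 0.04) it was the most tightly bounded of the 9. Tyk2 (ENSMUSG00000032175, chr9:21104068-21131243) had 989 UMIs or 17.0 CPM (16.0 to 18.1) and 1024 UMIs or 17.2 CPM (16.2 to 18.3), a log2 ratio of 0.01 (-0.11 to 0.14). With at most 5% mitochondrial UMIs the intervals of Ifnar2 and Tyk2 were too wide for a level call, as was that of Tyk2 in G1 cells, whereas Jak1 was level in all 11 alternatives. In the whole libraries, for these 4 genes a difference of over 1.16-fold in either direction lay outside the interval.

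Both ISGF3 components among the 9 were higher in the Usp18+/Δ-labelled library. Stat2 (ENSMUSG00000040033, chr10:128270559-128292849), the STAT particular to interferon signaling and a binding partner of USP18, had 623 UMIs or 10.7 CPM (9.90 to 11.6) and 1052 UMIs or 17.7 CPM (16.6 to 18.8). Its log2 ratio was 0.72 (0.58 to 0.87), or 1.65-fold. The value depended on the cells included: it was 1.76 (1.32 to 2.23) with at most 5% mitochondrial UMIs, and 0.42 (0.25 to 0.58), no longer raised, without the cells of strongest interferon response described below. Irf9 (ENSMUSG00000002325, chr14:55603571-55610030), the DNA-binding subunit, had 2204 UMIs or 38.0 CPM (36.4 to 39.6) and 3405 UMIs or 57.2 CPM (55.3 to 59.2). Its log2 ratio was 0.59 (0.51 to 0.67), or 1.51-fold, so that its call rests on the choice of 1.5-fold as the limit: Irf9 was just inside it and Socs1, at 1.25-fold, was the nearest gene outside. With size factors in place of library totals Irf9 stood at 0.58 and was no longer called raised.

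Irf7 showed the widest difference. Irf7 (ENSMUSG00000025498, chr7:141262706-141266481), the factor that drives most interferon-α genes once it is activated, had 282 UMIs or 4.86 CPM (4.31 to 5.46) in the Usp18+/f-labelled library. It had 1819 UMIs or 30.6 CPM (29.2 to 32.0) in the Usp18+/Δ-labelled library, a log2 ratio of 2.65 (2.47 to 2.84) or 6.29-fold, at percentile 99.9 of the ratios of all 8879 genes. Irf1 (ENSMUSG00000018899, chr11:53770014-53778374), best known as a target of interferon-γ, was the scarcest, with 71 UMIs or 1.22 CPM (0.955 to 1.54) and 139 UMIs or 2.34 CPM (1.96 to 2.76). Its log2 ratio of 0.93 (0.51 to 1.37) has a wide interval, and when each cell was thinned to 3000 UMIs the ratio was 0.48 (-0.27 to 1.25), not distinguishable from 0 at that depth. It was 1.85 (0.42 to 3.49) with at most 5% mitochondrial UMIs.

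Socs1 (ENSMUSG00000038037, chr16:10782240-10785536), whose protein blocks JAK1 and TYK2, had 3907 UMIs or 67.3 CPM (65.2 to 69.4) and 4985 UMIs or 83.8 CPM (81.5 to 86.1). Its log2 ratio was 0.32 (0.26 to 0.38). The interval excluded both 0 and a 1.5-fold difference, which put Socs1 between the raised and the level genes. With at most 5% mitochondrial UMIs it was at 0.74 (0.53 to 0.94) and raised.

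**Figure D2:**
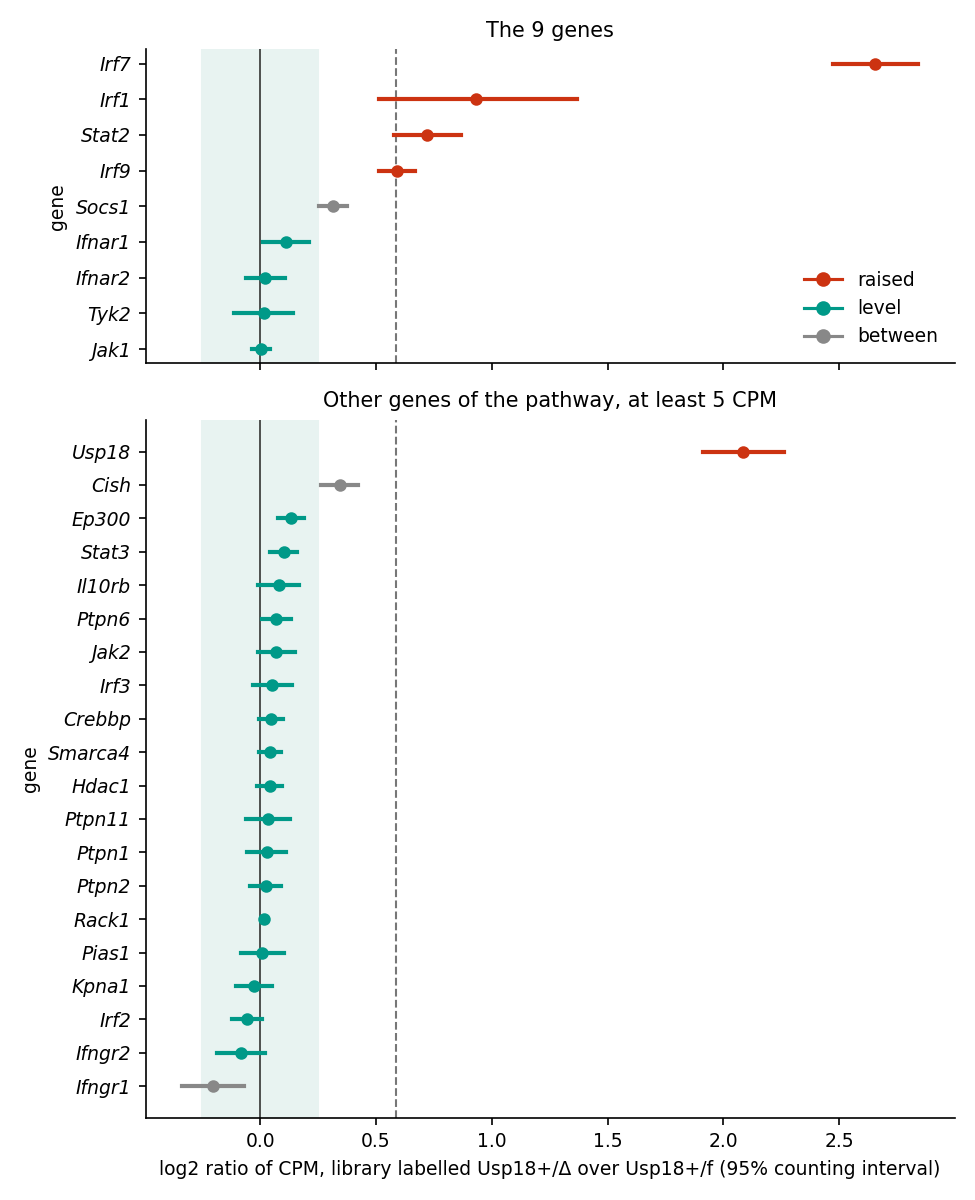
Log2 ratio of CPM, Usp18+/Δ-labelled library over Usp18+/f-labelled library, with exact 95% counting intervals, for the 9 genes (top) and the other pathway genes of at least 5 CPM (bottom); the shaded band is 0.25 either side of 0 and the dashed line is 1.5-fold. Most genes lie inside the band, and Irf7 (2.65), Usp18 (2.08), Irf1 (0.93), Stat2 (0.72) and Irf9 (0.59) lie to the right of the dashed line.

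The other genes of the pathway were a list of 25 chosen by role, of which 20 had a mean of at least 5 CPM. Of these, 1 was raised, 0 were lowered, 17 were level and 2 lay between, with a median log2 ratio of 0.04. The raised one was Usp18, with a log2 ratio of 2.08 (1.91 to 2.26). The nuclear partners of ISGF3 were level, with Crebbp at 0.05 (-0.00 to 0.10), Ep300 at 0.13 (0.08 to 0.19), Smarca4 at 0.04 (-0.00 to 0.09) and Hdac1 at 0.04 (-0.01 to 0.09).

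Among the other STAT and IRF genes, Stat3 was level at 0.10 (0.04 to 0.16), as were Irf2, an antagonist of IRF1, at -0.06 (-0.12 to 0.01) and Irf3, which first turns on interferon-β, at 0.05 (-0.03 to 0.14). The phosphatases Ptpn1, Ptpn2, Ptpn6 and Ptpn11, which remove phosphate from JAKs and STATs, were level, with log2 ratios from 0.02 to 0.07. So were Pias1, Jak2, the shared receptor subunit Il10rb, the importin Kpna1 and the scaffold Rack1, from -0.03 to 0.08. Cish, another inhibitor of the SOCS family, lay between at 0.34 (0.26 to 0.42), close to Socs1. The interferon-γ receptor subunits did not share the direction: Ifngr1 was at -0.20 (-0.34 to -0.07), between, and Ifngr2 at -0.08 (-0.19 to 0.02), level.

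Of the 5 list genes under 5 CPM, Irf4 had 0 UMIs in both libraries and Socs3 had 16 and 7. Irf8, a factor of macrophages and dendritic cells, had 5 and 24 UMIs, Ifnlr1 102 and 147, and Irf5 113 and 178. By the rule that calls Irf1 raised, Irf5 at 1.54-fold (1.21 to 1.96) and Irf8 at 4.68-fold (1.75 to 15.7) were raised too, and Ifnlr1 and Socs3 lay between. The ligands themselves were almost undetected in these cells. Of 21 type I, II and III interferon genes, 19 had 0 UMIs in both libraries, Ifnb1 and all listed interferon-α genes among them. Taken as up to 3 UMIs, a count of 0 allows 0.0517 and 0.0504 CPM. Ifnz had 11 and 11 UMIs and Ifng 1 and 0.

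In single cells the genes were sparse, so shares of cells were compared at an equal depth of 3000 UMIs per cell, reached by random thinning, and 456 and 350 shallower cells dropped out. Irf7 had a UMI in 1.71% (1.40 to 2.07) of 6090 cells and in 8.70% (8.04 to 9.40) of 6723 cells. Irf9 was detected in 10.9% (10.1 to 11.7) and 16.2% (15.3 to 17.1), and Stat2 in 3.40% (2.96 to 3.89) and 5.35% (4.83 to 5.92). Socs1 was detected in 18.9% (17.9 to 19.9) and 21.5% (20.5 to 22.5). For the other 5 genes the intervals of both libraries overlapped, as for Jak1 at 42.5% (41.3 to 43.8) and 42.1% (40.9 to 43.3) and for Irf1 at 0.427% (0.279 to 0.625) and 0.580% (0.413 to 0.792). Without thinning the shares were 3.83% and 18.7% for Irf7, 26.7% and 36.0% for Irf9, 9.03% and 12.8% for Stat2, and 73.8% and 74.1% for Jak1. No cell type here should lack these genes, so a background from free RNA could not be measured.

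Among thinned cells with an Irf7 UMI, 102 of 104 had 1 UMI and 0 had 3 or more in the Usp18+/f-labelled library. In the Usp18+/Δ-labelled library, 506 of 585 had 1 and 16 had 3 or more. The difference was thus in how many cells had a transcript caught and also in cells with several.

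The members were then followed along the interferon response of single cells. Each thinned cell was placed by its summed UMIs of 41 other ISGs, such as Isg15, Oas3 and Bst2, none of them among the 9 genes or the pathway list. The most abundant of them, Ly6e, was level between libraries, at 693 and 696 CPM, and the next, Bst2, was at 141 and 254 CPM. Ly6e therefore weighs heavily in the lower bins. The median cell had 5 of these UMIs in the Usp18+/f-labelled library and 7 in the Usp18+/Δ-labelled library, and 218 (3.58%) and 1482 (22.0%) cells had over 10. These bins are ranges of a count and not cell types: 8.11% and 19.8% of cells lay at 9 to 12 UMIs, close to the upper limit. Cells without any such UMI numbered 75 and 26, too few to read.

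Over the 4 bins from 1 UMI up, Irf7 was higher in each successive bin of both libraries. Within each of these 4 it was higher in the Usp18+/Δ-labelled library, and in the bin of 0 it had 1 and 0 UMIs. In the Usp18+/f-labelled library it was at 2.32 CPM in cells with 1 to 2 of these UMIs, 3.67 CPM with 3 to 5, 5.05 CPM with 6 to 10 and 34.6 CPM with over 10. The other library gave 9.36, 13.0, 22.9 and 81.1 CPM in the same bins. Within bins the log2 ratios were 2.02 (1.18 to 2.89), 1.82 (1.48 to 2.17), 2.18 (1.86 to 2.52) and 1.23 (0.85 to 1.64). Cells with over 10 of these UMIs held 51.4% of the Irf7 UMIs in the Usp18+/Δ-labelled library, with 19.0% of all UMIs there, and 21.5% of the Irf7 UMIs in the Usp18+/f-labelled library, with 2.98% of all UMIs. Within the open bin of over 10 the mean count was 13.4 UMIs in the Usp18+/f-labelled library and 16.9 in the other. Isg15 itself was higher in the Usp18+/Δ-labelled library within the 4 bins, with log2 ratios of 0.72, 0.88, 1.44 and 1.45. The bins therefore do not equalise the response between libraries.

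Stat2 was highest in the top bin of both libraries, at 9.72, 9.73, 11.2 and 27.0 CPM in the Usp18+/f-labelled library and 11.0, 11.3, 15.2 and 35.1 CPM in the Usp18+/Δ-labelled library. Within bins its log2 ratios were 0.18 (-0.40 to 0.74), 0.22 (-0.05 to 0.48), 0.44 (0.19 to 0.69) and 0.38 (-0.06 to 0.85), and only the bin of 6 to 10 had an interval above 0. With cells placed at 1500 UMIs instead, the ratio in the bin of 3 to 5 was 0.60 (0.36 to 0.84), and at 5000 UMIs it was 0.17 (-0.36 to 0.68). A bin at another depth also takes in cells of another range of response. These top-bin cells are the ones whose removal took Stat2 under the limit for a call.

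Irf9 ran from 32.6 through 36.8 and 39.9 to 61.0 CPM in the Usp18+/f-labelled library and from 46.2 through 48.0 and 57.5 to 73.7 CPM in the other. Its within-bin log2 ratios were 0.50 (0.22 to 0.78), 0.38 (0.25 to 0.51), 0.53 (0.40 to 0.66) and 0.27 (-0.02 to 0.58). With cells placed at 5000 UMIs instead, the ratio in the bin of 3 to 5 was 0.21 (-0.04 to 0.46), which does not differ from 0 at that depth. Without the top bin Irf9 was at 0.52 (0.44 to 0.60), also under the limit for a call.

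From the bin of 1 to 2 to the bin of over 10 of these UMIs, the level of Irf7 was 14.9-fold higher in the Usp18+/f-labelled library and 8.67-fold higher in the Usp18+/Δ-labelled library. The same step was 2.77-fold and 3.18-fold for Stat2, 1.87-fold and 1.59-fold for Irf9, and 1.30-fold and 1.53-fold for Socs1. Within the 4 bins the log2 intervals of Irf1 between libraries all held 0. From the lower to the upper bin it went from 9 to 8 UMIs and from 5 to 49 UMIs, 4.50-fold and 3.19-fold as CPM, with log2 intervals of 0.60 to 3.72 and 0.35 to 3.36. For Jak1 the step was 1.14-fold and 1.10-fold, with log2 intervals of 0.01 to 0.35 and 0.02 to 0.27. Ifnar1 and Tyk2 had intervals that held 0 in both libraries, and Ifnar2 had one above 0 in the Usp18+/Δ-labelled library, at 0.45 (0.16 to 0.74), but not in the other, at -0.06 (-0.47 to 0.33). As point values, the 4 level genes differed by at most 1.36-fold along this step and the 4 raised genes by at least 1.59-fold, but the intervals of the sets overlapped: that of Tyk2 reached a log2 ratio of 0.91 and that of Irf9 began at 0.43.

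**Figure D3:**
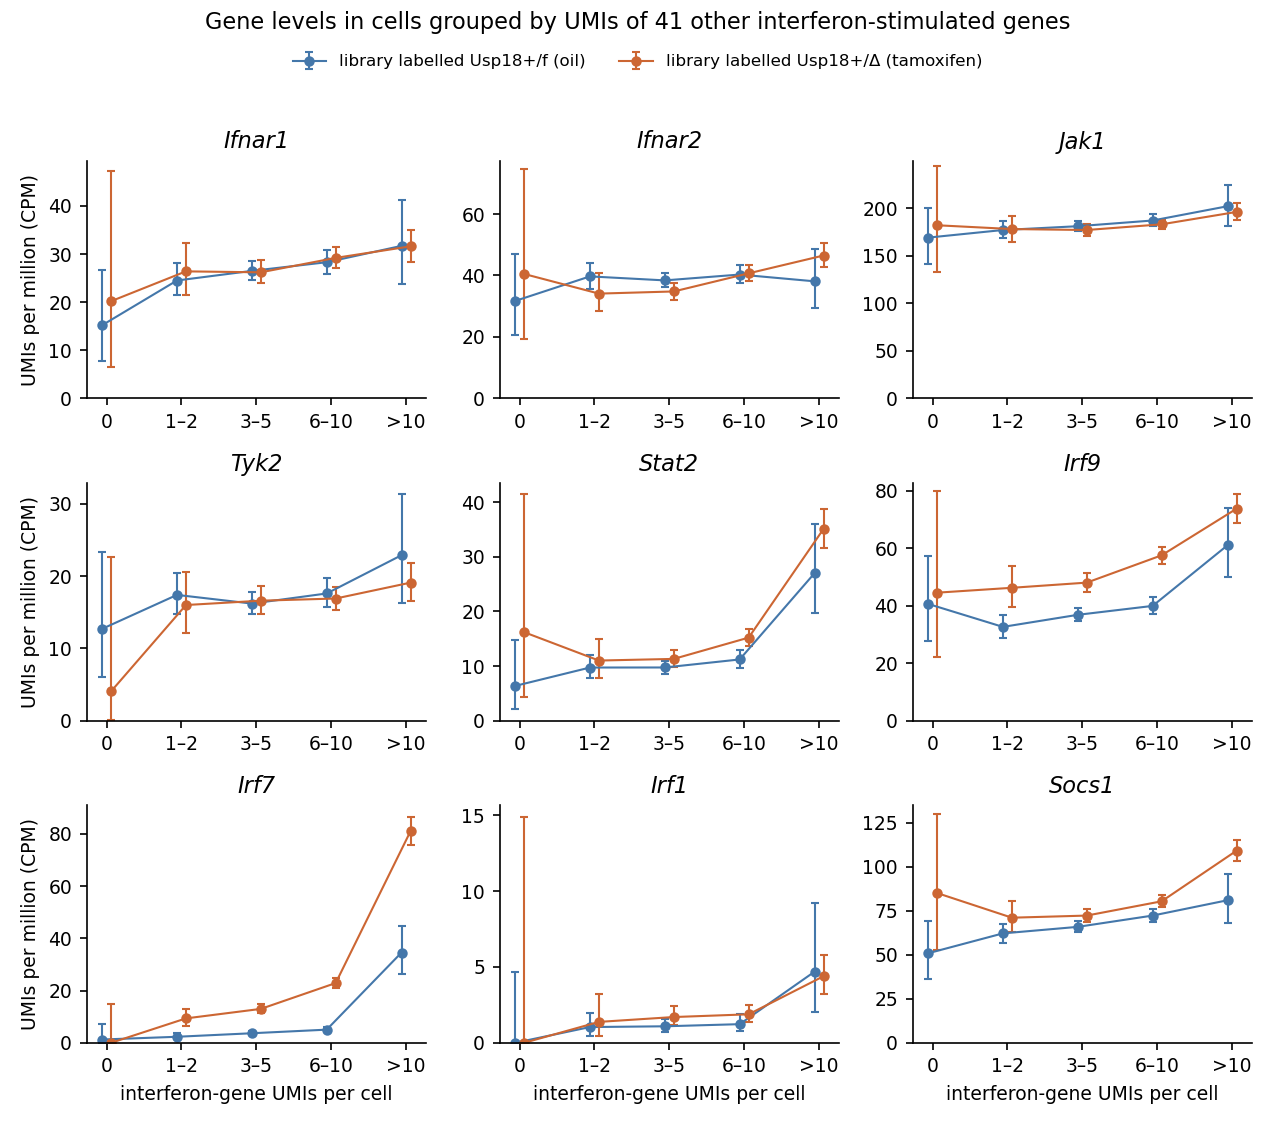
CPM of each of the 9 genes (vertical axes from 0) in cells grouped by their UMIs of 41 other interferon-stimulated genes after thinning, for both libraries; bars are exact 95% Poisson intervals, and the leftmost bin holds 75 and 26 cells. Irf7, Stat2 and Irf9 are highest in the bin of over 10, where Irf7 reaches 34.6 and 81.1 CPM, while Jak1 stays between 169 and 202 CPM.

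Clustering both libraries together, without the interferon list, the 9 genes and the pathway list among the genes used, gave 10 clusters. They were left unnamed because none had 3 markers of 1 type among its 10 leading genes without a marker of another type. The 6 clusters with at least 100 cells in each library were compared. Irf7 was raised in 6 of 6, with log2 ratios from 2.32 to 3.11. Stat2 had its interval above 0 in 6 of 6, from 0.42 to 0.80, and passed 1.5-fold in 2. Irf9 did so in 6 of 6, from 0.31 to 0.73, and passed 1.5-fold in 2. Socs1 had its interval above 0 in 5 of 6, with ratios from 0.06 to 0.40. Irf1, with 4 to 34 UMIs per cluster and library, had its interval above 0 in 3 of 6, from 0.06 to 1.93.

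Jak1 was level in 6 of 6 clusters, with ratios from -0.07 to 0.09. None of these 6 clusters had an interval above 0 for Ifnar1, Ifnar2 or Tyk2, although their intervals were wider and only 1, 3 and 0 clusters met the limit for level. Tyk2 was lower in cluster 4, at 18.1 and 11.9 CPM, with a log2 ratio of -0.61 (-1.10 to -0.13), the only such value among the 4 level genes.

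Among these 6, cluster 2 had the highest level of 7 of the 9 genes in both libraries, all but Ifnar2 and, in the Usp18+/f-labelled library, Irf1. It held 12.0% and 23.2% of cells, 94.6% and 92.9% of them called as G1, and its leading genes included Cpa3, Fcgr3, Tpsg1 and Mcpt4, which mast cells and basophils express. Irf7 was at 13.4 and 66.8 CPM there, against 2.39 to 4.60 and 18.9 to 24.3 CPM over the other 5 clusters. Stat2 was at 20.7 and 35.9 CPM, Irf9 at 52.0 and 86.5 CPM, and Socs1 at 101 and 134 CPM. Jak1 was also highest there, at 225 and 227 CPM, equal in both libraries within their intervals. Since cluster 2 was larger in the Usp18+/Δ-labelled library, the within-cluster ratios above are the values free of that shift.

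**Figure D4:**
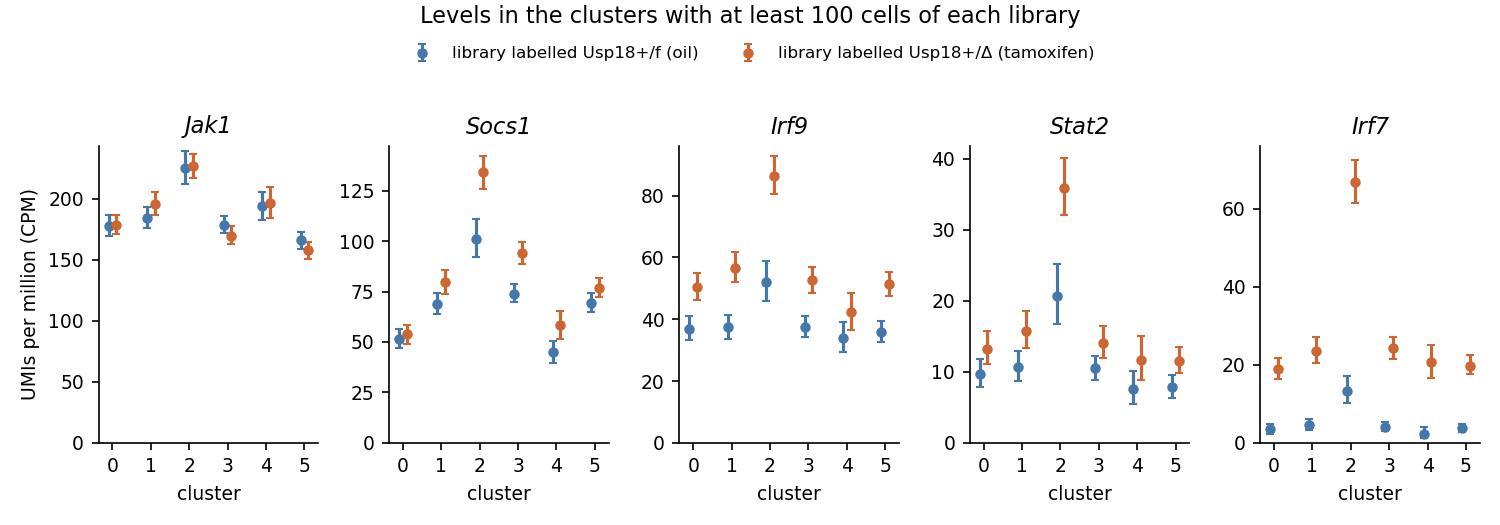
CPM of 5 genes (vertical axes from 0) in the 6 clusters with at least 100 cells of each library, with exact 95% Poisson intervals. Irf7 is higher in the Usp18+/Δ-labelled library in each cluster and reaches 66.8 CPM in cluster 2, whereas the Jak1 points of both libraries lie together.

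Cluster 9, led by Mx1, Iigp1 and Ifit1, held 5 and 55 cells. Irf7 was at 129 and 235 CPM there (7 and 108 UMIs) and Stat2 at 111 and 111 CPM (6 and 51 UMIs), far above the level of the whole libraries. Without these cells the log2 ratios were 2.61 for Irf7, 0.67 for Stat2 and 0.59 for Irf9, so the calls did not rest on them.

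By cell cycle phase, called on thinned cells, Irf7 was at 10.6 and 60.5 CPM in G1, 3.81 and 22.3 CPM in S, and 3.68 and 22.3 CPM in G2/M. Its log2 ratios of 2.52, 2.55 and 2.60 were alike within their intervals. Stat2 was at 17.5 and 33.3 CPM in G1, a ratio of 0.92 (0.65 to 1.20), and at 0.58 (0.29 to 0.87) in S and 0.51 (0.28 to 0.73) in G2/M. Irf9 was at 0.69 (0.52 to 0.85), 0.61 (0.46 to 0.76) and 0.45 (0.34 to 0.57). Irf1 was at 1.25 (0.28 to 2.32), 0.51 (-0.16 to 1.19) and 0.99 (0.26 to 1.76). Jak1 stood at 214 and 217 CPM in G1 and at 173 to 180 CPM in the other phases, with ratios from -0.03 to 0.02. Phases are ranges of a score, and G1 was called for 1349 of 6090 and 1916 of 6723 cells.

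Cells with markers of other lineages were few. All 6 macrophage markers were detected in both libraries, summing to 2.26 and 5.98 CPM, and 28 and 74 cells had at least 2 UMIs of the macrophage, neutrophil, plasmacytoid dendritic, B, T, NK or endothelial markers. Neutrophil markers summed to 0.0344 and 22.6 CPM, with 1319 of the 1343 UMIs of the Usp18+/Δ-labelled library in 1 cell. Siglech and Cd300c of plasmacytoid dendritic cells, which make interferon-α, were at 0 in both libraries, as were Cd3d, Ncr1, Klrd1, Gzma, Cdh5 and Emcn. Other markers of these lists were detected. Ccr9 gave 151 of the 158 and 137 of the 150 UMIs of the plasmacytoid dendritic list, and Cox6a2 had 7 and 12. Trac of T cells had 7 and 7 UMIs, Cd3g 3 and 0, and Pecam1 of endothelial cells 11 and 12. Summed markers were at 2.72 and 2.52 CPM for plasmacytoid dendritic cells, 0.172 and 0.403 CPM for B cells, 0.207 and 0.118 CPM for T cells, 0 and 0.0168 CPM for NK cells, and 0.258 and 0.218 CPM for endothelial cells. Without the cells that carried such markers the log2 ratios were 2.65 for Irf7, 0.71 for Stat2 and 0.59 for Irf9, nearly as large as with them. Markers of mast cells or basophils, at 996 and 1150 CPM in sum, and of erythroid cells, at 3890 and 4050 CPM, were found in most cells of both libraries. Cpa3, a mast cell protease that led cluster 2, was at 101 and 190 CPM, and Fcer1a at 174 and 264 CPM. The other 3 markers of that list were not higher, with Ms4a2 at 516 and 506 CPM, Gata2 at 203 and 184 CPM and Mcpt8 at 2.94 and 2.59 CPM. The part of these cells in the results was not tested beyond the values within clusters.

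The genes most like each raised gene were found over 14 sums of at least 100 cells each, by cluster and library, among 5984 genes of at least 20 CPM. These sums share their library and its depth, so the correlations of log2(CPM + 1) are descriptions. Irf7 was most like Isg15 (Pearson's r = 0.989), an ISG whose product USP18 removes from proteins, then Ifi35 (0.936) and Irf9 (0.931). Irf9 was most like Tapbp (0.956) of antigen presentation, Rnf114 (0.954) and Dtx3l (0.946). Stat2 was most like Atp6ap1 (0.962), Fcer1a (0.947) and Sgms1 (0.946), and Irf1 was most like Cotl1 (0.841), Psmb8 (0.834) and Mbd1 (0.820). The sums take in clusters 6 and 7 from the Usp18+/f-labelled library only, where Irf1 had 1 UMI in each. No sum held over 34 Irf1 UMIs, so the genes named for Irf1 rest on few counts. Fcer1a is the IgE receptor subunit of mast cells and basophils.

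Neighbouring genes share bases with 6 of the 9, and how reads from shared bases were assigned is not given in the sources used here. Irf7 and Phrf1 overlap at their 3′ ends on opposite strands, and Phrf1 was level at 0.02 (-0.05 to 0.10). Irf9 overlaps Rnf31, which lies upstream on the same strand, and Rnf31 was at 0.24 (0.10 to 0.38). Gm21970, which overlaps Ifnar2, had 0 UMIs in both libraries, and the overlapping genes of Jak1, Tyk2 and Irf1 had at most 17 UMIs in a library.

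The start regions of the 9 genes were read from RefSeq windows (GRCm38.p6, 250 bases before to 50 after a start), which matched all 9 genes with 11 windows. ISGF3 binds ISREs, which hold repeats of GAAA, and STAT dimers bind GAS elements. The letters GAAANNGAAA, searched on both strands, stood in 3.44% of all 32851 windows and in those of Stat2 and Socs1. The letters TTCNNNGAA, which read the same on both strands, stood in 8.30% of windows and in those of Irf1, Ifnar1 and Ifnar2. Irf7, Irf9, Jak1 and Tyk2 held neither, which says only that these letters are not in these windows. The bases upstream of the start are shown for Irf7, the gene of the widest difference, and for the raised genes Stat2 and Irf1 and the intermediate Socs1, each 5′ to 3′ on the strand of the gene. For Irf7 the stretch holds 193 bases, those outside the annotated gene, and for the others 250. Capitals mark GAAANNGAAA, or its reverse complement, in Stat2 and Socs1 and TTCNNNGAA in Irf1. The positions are chr7:141266482-141266674 (minus strand) for Irf7, chr10:128270248-128270497 (plus strand) for Stat2, chr16:10785537-10785786 (minus strand) for Socs1 and chr11:53769764-53770013 (plus strand) for Irf1.
Irf7: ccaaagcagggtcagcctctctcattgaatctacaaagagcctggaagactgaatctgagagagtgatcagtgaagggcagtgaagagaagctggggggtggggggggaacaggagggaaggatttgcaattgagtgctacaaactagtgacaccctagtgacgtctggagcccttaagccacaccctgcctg
Stat2: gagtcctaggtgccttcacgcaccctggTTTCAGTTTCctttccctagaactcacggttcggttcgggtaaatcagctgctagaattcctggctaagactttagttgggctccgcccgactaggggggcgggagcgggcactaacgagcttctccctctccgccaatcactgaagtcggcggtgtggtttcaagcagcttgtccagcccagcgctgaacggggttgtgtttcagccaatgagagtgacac
Socs1: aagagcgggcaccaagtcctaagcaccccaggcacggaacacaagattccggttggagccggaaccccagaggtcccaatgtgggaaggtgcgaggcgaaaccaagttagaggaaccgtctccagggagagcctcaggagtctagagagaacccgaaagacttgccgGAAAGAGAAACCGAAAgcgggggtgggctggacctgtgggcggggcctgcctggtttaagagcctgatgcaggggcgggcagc
Irf1: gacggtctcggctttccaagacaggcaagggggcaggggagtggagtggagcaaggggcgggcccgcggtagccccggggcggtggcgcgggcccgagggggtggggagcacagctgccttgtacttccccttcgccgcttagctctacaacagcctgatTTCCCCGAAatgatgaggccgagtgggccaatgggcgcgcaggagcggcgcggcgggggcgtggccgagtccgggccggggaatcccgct

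The match in Stat2 lay on the opposite strand from -222 to -213 counted from the RefSeq start, with -1 the base before it. In Socs1 a pair of overlapping matches ran from -83 to -74 and from -77 to -68. The match in Irf1 ran from -90 to -82. Of the 2 genes with GAAANNGAAA, 1 was raised and 1 lay between, and of the 3 with TTCNNNGAA, 1 was raised and 2 were level, so the letters did not separate the sets in these windows.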

How the data were processed

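Single-cell RNA sequencing was performed by the authors on 2 pooled libraries, of 3 mice each, with the 10x Genomics 3′ V3 kit and 8000 cells targeted. The authors processed reads with Cell Ranger 3.0.2 against mm10. The files they deposited give unnormalised UMI counts per gene and cell barcode (63690481 UMIs over 7281 barcodes for Usp18+/f and 65146263 over 7833 for Usp18+/Δ). Seurat is also named in the submitters' processing notes, and its output was not used here.

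Cells were kept from 500 detected genes upward and up to 10% mitochondrial UMIs. Scrublet in scanpy 1.11.5 marked under 0.5% of cells on its own threshold, so cells above the 95th percentile of its scores were removed (340 and 333). UMIs were summed per library and scaled to CPM. With 1 library per group no test was run: summed UMIs carry exact Poisson intervals, log2 ratios exact conditional intervals and shares Clopper-Pearson intervals, at 95%, for counting error only. These functions were tested on simulated data. Cells were clustered together (10000 UMIs per cell, log1p, 2000 variable genes, 30 components, 20 neighbours, Leiden resolution 0.8).

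Coordinates are from GENCODE vM21 (GRCm38, the build of the files), matched by identifier for all 9 genes, and start windows from RefSeq. Pathway genes were named when raised or lowered or with a mean of at least 20 CPM, and genes under 5 CPM by their UMIs. Ifngr1 is outside this rule and was named after its values were seen. Some genes of the lists are not reported here. The members and lists were chosen with earlier results of these data known. Alternatives varied the cell filter, doublets, scaling, averaging, depth, the cells included and the limits of the calls.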

Additional observations from a re-analysis of the deposited data

How the results depend on the processing

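Each log2 ratio was recomputed under 11 alternatives, of which the removal of the smallest cluster and the restriction to G1 cells were chosen after seeing the data. Irf7 was raised in 11 of them (2.26 to 3.09), Stat2 and Irf1 in 10 and Irf9 in 9, while Jak1 was level in 11, Ifnar2 in 10, Tyk2 in 9 and Ifnar1 in 7. Size factors moved the ratios by -0.02 and a total without mitochondrial, ribosomal protein and haemoglobin genes by 0.01. No paired analysis was possible because 1 library stands for each group.

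Restricting to at most 5% mitochondrial UMIs, which left 1013 and 732 cells, gave 0.26 for Ifnar1, 0.12 for Ifnar2, 0.10 for Jak1, 0.16 for Tyk2, 1.76 for Stat2, 3.09 for Irf7, 1.85 for Irf1 and 0.74 for Socs1, which was then raised. 1 of the 9 genes was then level, with 6.46% of all genes raised and 10.2% level. Cluster 7 held 306 and 42 cells, with medians of 1054 and 987.5 UMIs per cell and of 0.884% and 0.915% mitochondrial UMIs. These shallow cells thus have unlike shares in the subset of each library. Their part in the values was not tested, nor was any other cause. Averaging CPM over cells, which weighs a shallow cell of cluster 7 like a deep cell, gave 0.21 for Ifnar1, 0.67 for Irf9 and 0.45 for Socs1. Calls after averaging borrowed the interval width of the summed UMIs, which is not an exact interval of the average. Thinning to 3000 UMIs gave -0.082 for Ifnar2, 0.48 for Irf1 and 0.25 for Socs1, and 45.7% of genes level, since fewer UMIs widen the intervals.

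Without cells of over 10 index UMIs, the count of the 41 ISGs, the ratios were 0.42 for Stat2, 2.26 for Irf7 and 0.22 for Socs1. Then 2 of the 9 genes, Irf7 and Irf1, were raised. Among all genes of at least 5 CPM, a level that Irf1 does not reach, 0.801% were raised. In G1 cells alone they were 0.92 for Stat2, 0.69 for Irf9 and 0.41 for Socs1, with 2 genes level, 2.58% of all genes raised and 25.8% level. A limit of 2-fold left 1 gene, Irf7, and 0.473% of all genes raised, and a limit of 0.25 on the log2 scale gave 5.29%. An interval within 0.15 left 40.7% of genes level. Genes of at least 1 CPM and of at least 20 CPM gave 2.67% and 0.702% raised. Within the bin of 3 to 5 index UMIs, placing cells at 1500 UMIs gave 2.20 for Irf7, 0.52 for Irf9 and 0.60 for Stat2. With Leiden resolution 0.4 the lowest ratio over clusters was 2.42 for Irf7, 0.47 for Irf9 and 0.47 for Stat2.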
